A study of Mus musculus with 16 samples.

Results

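The deposited table of RNA levels in NIH/3T3 mouse fibroblasts named 78 mitochondrial ribosomal protein genes (members) among its 12900 RNAs, chosen by a symbol that starts with Mrpl or Mrps and a number. They comprised 47 Mrpl genes, 29 Mrps genes and the pseudogenes Mrpl23-ps1 and Mrpl48-ps, spread over 17 chromosomes. NIH/3T3 cells expressed, on doxycycline, a β-globin reading frame joined to the untranslated region of β-globin itself (HBB) or of Pkp4 (Pkp4 cUTR), and each line was separated into protrusions (Ps) and cell bodies (CB), with 4 replicates of each of the 4 kinds of sample. All 16 samples received 1 µg per ml doxycycline for 3 days, and the serum-starved cells then sat for 2 h on filters with pores of 3 µm before lysophosphatidic acid (LPA), an attractant lipid, was put under the filter for 1 h. Cells were fixed in 0.3% paraformaldehyde for 10 min before the fractions were scraped off. Each construct was present as 1 line, so construct and line cannot be told apart. The study calls the replicate samples independent, but neither it nor the labels name separate cultures, and p-values measure the spread between these samples, which may be technical.

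Mitochondria keep ribosomes of bacterial descent, and these make the few respiratory chain proteins that the mitochondrial genome encodes. All protein subunits of these ribosomes are encoded in the nucleus, translated in the cytosol and imported, whereas their ribosomal RNAs are transcribed inside the organelle. Some subunits descend from bacterial ribosomal proteins and others were gained in the mitochondrial lineage, and the ribosomes are assembled inside the organelle.

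By these roles 49 members belonged to the large subunit and 26 to the small subunit. The large-subunit count included Mrps18a and Mrps30, which carry a small-subunit name but sit in the large subunit. Mrps36 kept the name although its product is now counted as a part of the 2-oxoglutarate dehydrogenase complex. A mean above 1 on the log2 scale of counts scaled to library size (CPM) was reached by 76 members, that is by every member but the pseudogenes. All 78 matched a gene model of GENCODE for GRCm38, the assembly also called mm10, and 76 of these models were protein coding.

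The fibroblast origin and the fractions were checked on other RNAs. Of 8 fibroblast markers 7 were in the table, all but Thy1, with summed levels of 23299 to 30364 CPM in CB and 15403 to 18211 CPM in Ps. Among these 7, Vim was higher in Ps in both lines and the others were lower. Pecam1 and Cdh5 of endothelium together reached at most 1.87 CPM. The epithelial genes Cdh1 and Krt8 together stood at 10.6 to 20.3 CPM, Cd68 of macrophages at 2.83 to 6.67 CPM and Des of muscle at 20.5 to 65.0 CPM, while Epcam, Krt18, Ptprc and Myod1 were not among the RNAs tested. The nuclear RNAs Malat1, Neat1 and Kcnq1ot1 summed to 476 to 723 CPM in CB and 160 to 315 CPM in Ps, and 7 protrusion RNAs to 749 to 1385 CPM in CB and 4065 to 6815 CPM in Ps. The largest parts were Neat1, at a mean of 9.26 log2 CPM in HBB CB, and Cyb5r3, at 11.9 in HBB Ps. Malat1 and Neat1 were lower in Ps in both lines, Kcnq1ot1 did not differ (limma adjusted p = 0.161 and 0.567) and Meg3 was not tested. The 7 protrusion RNAs were higher in Ps in both lines, except Pkp4 in Pkp4 cUTR (limma adjusted p = 0.0735). Pkp4, whose untranslated region the construct carries, is among these 7 and averaged 4.47 log2 CPM in HBB CB and 8.91 in Pkp4 cUTR CB. The sum of the 7 was 749 to 842 CPM in HBB CB and 963 to 1385 CPM in Pkp4 cUTR CB. Replicate 4 of CB stood nearer to the Ps samples than the other CB replicates of its line on the first principal component, at 23.4 against 39.8 to 47.5 in HBB and at 0.972 against 27.7 to 42.2 in Pkp4 cUTR, and in Pkp4 cUTR CB its Pkp4 level was 8.26 log2 CPM against at least 8.82 in the others. The part of these differences in the members' values was not tested. CPM are reads relative to a scaled library size, so more of a member per fraction and less of the other RNA cannot be told apart.

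In HBB cells, the control, the mitoribosomal RNAs stood higher in Ps than in CB as a group. At a Benjamini-Hochberg adjusted p under 0.05 by limma, 63 of 78 members (80.8%) were higher in Ps, where 28.3% of all RNAs were, and 0 were lower, where 28.9% of all RNAs were. At an unadjusted p under 0.05 the counts were 66 higher, against 30.8%, and 0 lower, against 31%. The median log2(FC) of Ps over CB was 0.44 over the members, between -0.15 and 1.27, and 0.01 over all RNAs, and 74 members (94.9%) lay above 0, against 50.5% of all RNAs. In 56 members (71.8%) the lowest Ps sample lay above the highest CB sample, as it did for 25.5% of all RNAs. Past a fold of 2, with p under 0.05 before adjustment, were 5 members (6.41%), against 4.54% of all RNAs, and 0 were below the inverse of 2, against 4% of all RNAs, so the share of members was far from the background for small differences and near it for large ones.

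In Pkp4 cUTR cells 61 members (78.2%) were higher in Ps, where 28.2% of all RNAs were, and 0 were lower, where 28.5% of all RNAs were. The unadjusted p under 0.05 gave 64 higher, against 30.6% of all RNAs, and 1 lower, against 30.9%, the latter Mrps31. The median log2(FC) was 0.42, between -0.26 and 1.13, and 74 members (94.9%) lay above 0, against 50.8% of all RNAs. The groups of samples did not overlap, with Ps higher, in 38 members (48.7%), against 22.6% of all RNAs. Past a fold of 2 there were 2 members (2.56%), against 5.07% of all RNAs, and 0 in the other direction, against 2.92%. Both lines called 58 members (74.4%), against 24.1% of all RNAs. In total 66 members (84.6%) were called in at least 1 line, against 32.4%, and 12 in neither.

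Taken between samples of the same number, the Ps over CB difference of the members varied more between numbers than between lines. Ps and CB of a line were not paired by number in the check described below. These differences and their SD thus depend on how the samples are matched. The median over the members was 0.50, 0.44, 0.59 and 0.22 for HBB replicates 1 to 4 (0.44 ± 0.15, SD, n = 4) and 0.25, 0.54, 0.81 and 0.11 for Pkp4 cUTR (0.43 ± 0.31, SD, n = 4). Number 4 gave the smallest value in both lines, with 65 of 78 members above 0 in HBB and 53 in Pkp4 cUTR, against 69 to 77 in the other 6 line and number combinations, while 48.8% to 52.0% of all RNAs were above 0 in these 8. Without the CB replicate 4 of both lines, 68 members were higher in HBB and 67 in Pkp4 cUTR, and the medians were both 0.49. The scaled library sizes of the authors were 1.07 to 1.11 times the totals in CB and 0.828 to 0.974 times in Ps. With reads scaled to the plain totals instead, 36 members were higher and 4 lower in HBB, and 28 higher and 8 lower in Pkp4 cUTR. That scaling moved the median of all RNAs to -0.23 and -0.25, and the members' medians of 0.20 and 0.15 lay 0.43 and 0.41 above it.

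**Figure D1:**
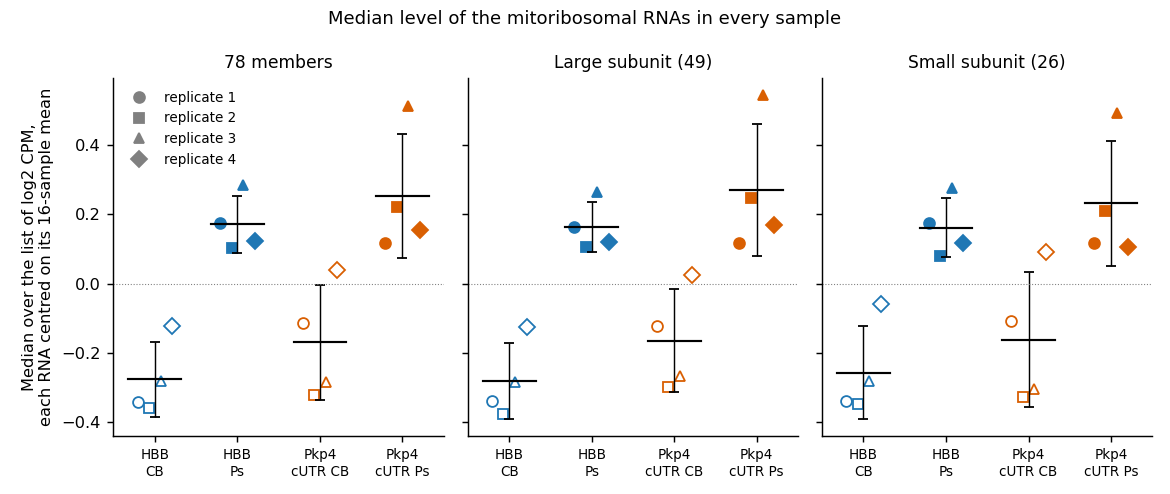
Median over the members of log2 CPM, each RNA centred on its mean over the 16 samples, for all 78 members, the large subunit and the small subunit (y axis), in each sample of the 4 groups (x axis). Open symbols are CB, filled symbols Ps, symbol shape the replicate number, and bars the mean and SD of 4 samples. For the 78 members, CB samples lie between -0.36 and 0.04 and Ps samples between 0.10 and 0.51, with replicate 4 the highest CB sample of each line.

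Both subunits contributed, and their counts are read against the 28.3% and 28.2% of all RNAs called higher in HBB and Pkp4 cUTR. Of the 49 large-subunit members, 41 were higher in Ps in HBB and 40 in Pkp4 cUTR, with medians of 0.45 and 0.43. Of the 26 small-subunit members, 20 were higher in each line, with medians of 0.42 and 0.36. Among large-subunit proteins with a bacterial counterpart 27 of 30 were higher in each line, and among those gained in the mitochondrial lineage 14 of 19 in HBB and 13 of 19 in Pkp4 cUTR. These 19 include Mrps18a, although it is a paralog of Mrps18c, which was counted with a bacterial counterpart. For the small subunit the corresponding counts were 13 of 16 in each line and 7 of 10 in each line. The differences between these classes were not tested.

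**Figure D2:**
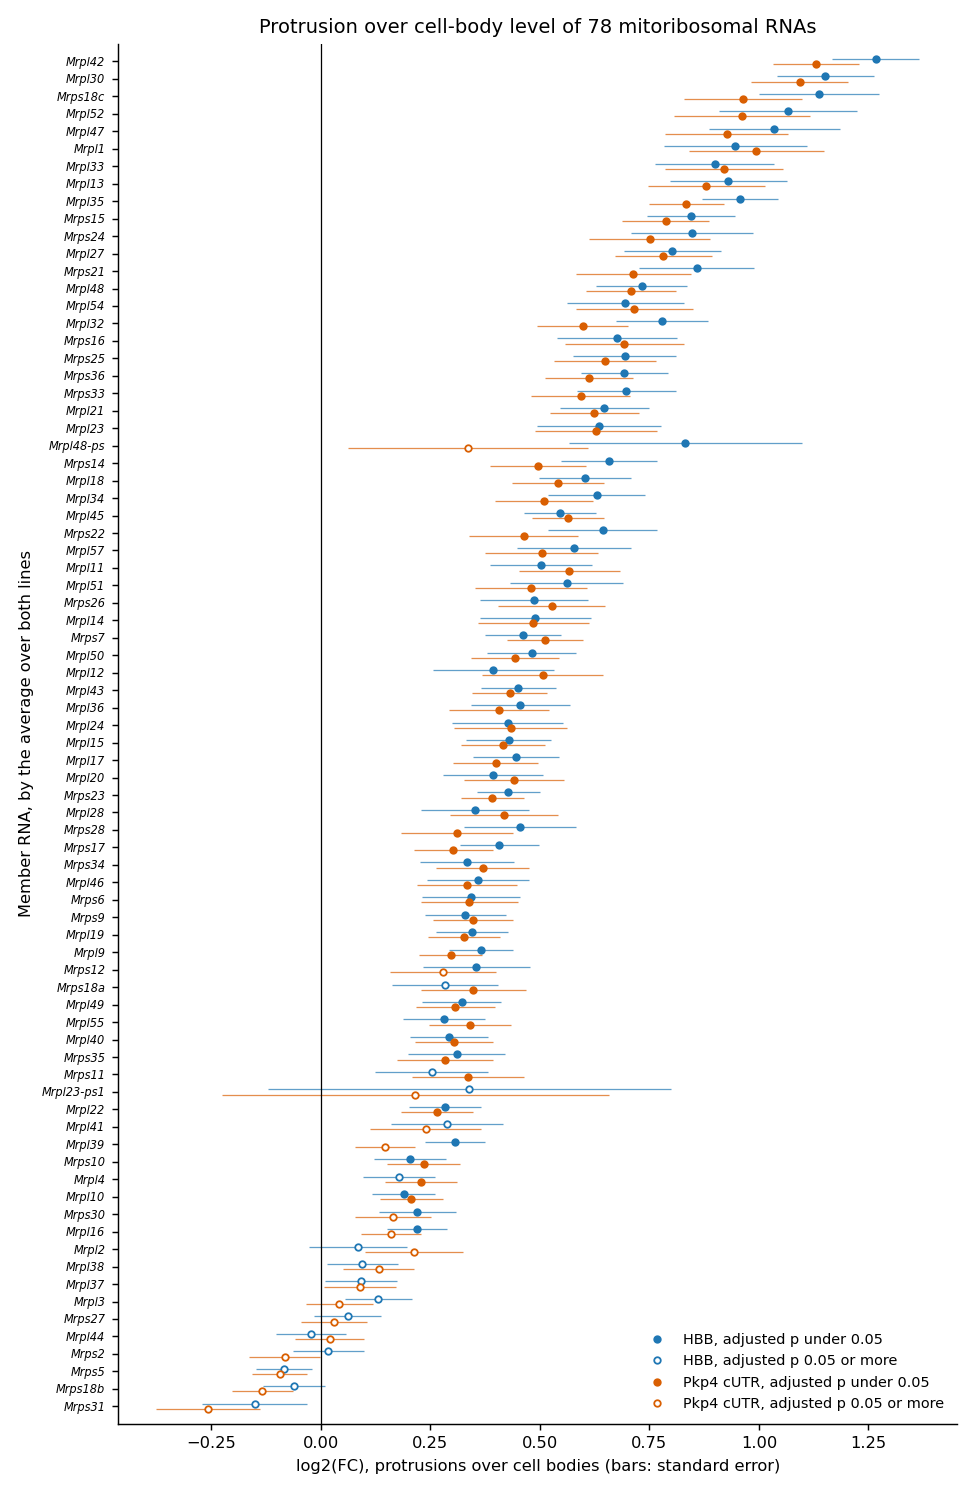
log2(FC) of Ps over CB (x axis) for each of the 78 members (y axis), ranked by the average over both lines, with HBB in blue, Pkp4 cUTR in orange and standard errors from limma as bars. Filled points have an adjusted p under 0.05, and the values run from 1.27 for Mrpl42 in HBB down to -0.26 for Mrps31 in Pkp4 cUTR.

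Promoter letters were read because many nuclear genes for mitochondrial proteins carry binding sequences of ETS-family factors, NRF1 or YY1. RefSeq windows from 250 bases before to 50 bases after the start site (GRCm38.p6) were available for 67 members. The ETS letters CCGGAAG, on either strand, stood in 24 of these 67 (35.8%), in 9.93% of all 27025 genes with such a window and in 20.65% of the 9065 genes that were also measured here. The core letters GCATGCG of NRF1 stood in 8 members (11.9%), against 4.01% of all genes and 7.43% of the measured genes, and those of YY1, ATGGCGG, in 12 members (17.9%), against 4.69% and 9.82%. None of the 3 motifs contains another. Apart from that of Mrps11, the YY1 letters of the members lay after the start site. Whether those overlap start codons, which share the letters ATG, was not examined. Such matches describe the windows and are no evidence of binding. The sequences below come from 3 named members in which the whole stretch of 30 bases printed, with the ETS letters in capitals and here on the opposite strand of the gene, lies before both the RefSeq and the GENCODE start, and they show the same letters at both ends of the enrichment order.
Mrps18c: gggtcacgtgaCTTCCGGcccgggaagcgc
Mrpl52: caagatgtcggCTTCCGGttttcccggcag
Mrps27: tggtaggaccaCTTCCGGcggaggcgggct
The windows are chr5:100798592-100798621, chr14:54426851-54426880 and chr13:99344727-99344756, all on the plus strand. Mrps18c and Mrpl52 were among the 8 highest members and Mrps27 among the 8 lowest. The 24 members with the letters had a median log2(FC) of 0.59 in HBB, and 20 of them were higher in Ps, where 80.8% of all members and 28.3% of all RNAs were. The medians were 0.34 over the 8 members with the NRF1 letters, of which 7 were higher, and 0.27 over the 12 with the YY1 letters, of which 6 were.

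Mrpl42, a large-subunit protein gained in the mitochondrial lineage, had the highest average log2(FC) (chromosome 10, 95480805 to 95501940, minus strand, GRCm38). In HBB it stood at 4.54, 4.49, 4.54 and 4.45 log2 CPM in CB replicates 1 to 4 and at 5.77, 5.74, 5.99 and 5.60 in Ps. In Pkp4 cUTR it stood at 4.77, 4.80, 4.54 and 4.89 in CB and at 5.89, 5.93, 6.07 and 5.62 in Ps. Every Ps sample was above every CB sample, also across the lines. Its log2(FC) was 1.27 ± 0.10 (SE) in HBB, with a limma adjusted p of 1.83e-08, and 1.13 ± 0.10 in Pkp4 cUTR, with an adjusted p of 8.56e-08.

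Mrpl30, the counterpart of a bacterial large-subunit protein, came next (chromosome 1, 37890477 to 37898535, plus strand). In HBB its levels were 6.17, 6.13, 6.11 and 6.33 log2 CPM in CB and 7.36, 7.23, 7.58 and 7.17 in Ps. In Pkp4 cUTR they were 6.44, 6.27, 6.17 and 6.58 in CB and 7.34, 7.47, 7.75 and 7.28 in Ps. Ps replicate 3 was the highest sample of its group in both lines, and CB replicate 4 the highest CB sample. The log2(FC) was 1.15 ± 0.11 and 1.09 ± 0.11, with limma adjusted p of 1.52e-07 and 3.58e-07.

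Mrps18c belongs to the small subunit and is 1 of 3 paralogs of a bacterial small-subunit protein (chromosome 5, 100798627 to 100804471, plus strand). In HBB it stood at 4.03, 4.10, 3.96 and 4.39 log2 CPM in CB and at 5.22, 5.17, 5.40 and 5.22 in Ps. In Pkp4 cUTR the values were 4.54, 4.21, 4.13 and 4.77 in CB and 5.23, 5.37, 5.72 and 5.16 in Ps. The groups did not overlap in either line, and the log2(FC) was 1.14 ± 0.14 (limma adjusted p = 1.78e-06) and 0.96 ± 0.13 (adjusted p = 1.08e-05). A predicted gene, Gm43511, overlaps it on the same strand over 250 exon bases, and how reads there were divided is uncertain.

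Mrpl52, Mrpl47, Mrpl1, Mrpl33 and Mrpl13, all of the large subunit, completed the 8 members with the highest averages. Their log2(FC) in HBB was 1.07 for Mrpl52, 1.03 for Mrpl47, 0.95 for Mrpl1, 0.90 for Mrpl33 and 0.93 for Mrpl13. In Pkp4 cUTR it was 0.96 for Mrpl52, 0.93 for Mrpl47, 0.99 for Mrpl1, 0.92 for Mrpl33 and 0.88 for Mrpl13. Ps and CB samples did not overlap for any of these 5 in either line. With Mrpl42, Mrpl30 and Mrps18c, Mrpl52 and Mrpl47 made up the 5 members past a fold of 2 in HBB, and Mrpl42 and Mrpl30 the 2 in Pkp4 cUTR. Mrpl47 lies opposite exons of Actl6a and Ndufb5 over 1068 bases and Mrpl33 shares 261 exon bases with Gm43809 on its own strand, and whether the reads were counted by strand is not given in the sources used here.

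At the other end of the order stood 5 small-subunit and 3 large-subunit members. Mrps31, gained in the mitochondrial lineage (chromosome 8, 22411361 to 22429665, plus strand), was at 2.85, 2.90, 3.03 and 3.14 log2 CPM in HBB CB and 2.70, 3.00, 2.87 and 2.74 in HBB Ps. In Pkp4 cUTR it was at 3.00, 3.08, 3.18 and 3.42 in CB and 2.97, 2.59, 2.97 and 3.07 in Ps. Ps and CB samples overlapped in both lines, and the log2(FC) of -0.15 ± 0.12 and -0.26 ± 0.12 did not pass the adjusted test (limma adjusted p = 0.295 and 0.0716).

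Mrps18b, the small-subunit paralog of Mrps18c (chromosome 17, 35910379 to 35916389, minus strand), stood at 5.78, 5.86, 5.89 and 6.05 log2 CPM in HBB CB and 5.88, 5.74, 5.85 and 5.85 in HBB Ps. In Pkp4 cUTR the levels were 5.94, 5.96, 5.98 and 6.08 in CB and 5.81, 5.80, 6.01 and 5.81 in Ps. The fractions overlapped, with log2(FC) of -0.06 ± 0.07 and -0.13 ± 0.07 (limma adjusted p = 0.474 and 0.115). The paralog of the large subunit, Mrps18a, lay between the other two at 0.28 ± 0.12 in HBB (adjusted p = 0.0515) and 0.35 ± 0.12 in Pkp4 cUTR (adjusted p = 0.0195). Thus the 3 paralogs of one bacterial protein stood near the top, in the lower part and near the bottom of the order, in both lines.

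Mrps5, the counterpart of a bacterial small-subunit protein (chromosome 2, 127587222 to 127606829, plus strand), was at 5.55, 5.68, 5.72 and 5.70 log2 CPM in HBB CB and 5.65, 5.59, 5.60 and 5.47 in HBB Ps. In Pkp4 cUTR it was at 5.68, 5.62, 5.66 and 5.75 in CB and 5.55, 5.60, 5.53 and 5.66 in Ps. These 16 values span a narrow range and the fractions overlap, with log2(FC) of -0.08 ± 0.06 and -0.09 ± 0.06 (limma adjusted p = 0.271 and 0.215). Mrps2, Mrpl44, Mrps27, Mrpl3 and Mrpl37 completed the 8 lowest, with log2(FC) of 0.02, -0.02, 0.06, 0.13 and 0.09 in HBB and -0.08, 0.02, 0.03, 0.04 and 0.09 in Pkp4 cUTR, none past the adjusted test. With reads scaled to the totals, Mrps31, Mrps18b and Mrps5 were called lower in Ps in both lines, as was Mrpl44, and Mrps2, Mrps27, Mrpl3 and Mrpl37 were called lower in Pkp4 cUTR and changed sign in HBB.

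**Figure D3:**
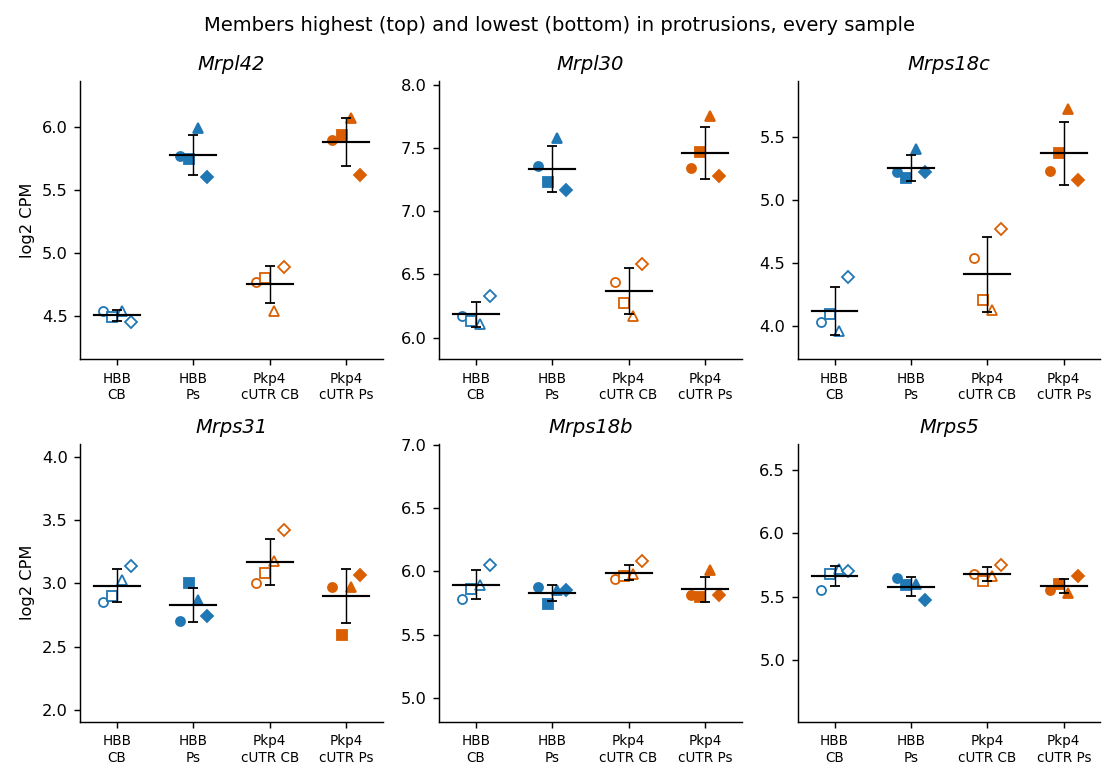
log2 CPM (y axis, panels of equal height) of the 3 members with the highest and the 3 with the lowest average log2(FC), in every sample of the 4 groups (x axis). Open symbols are CB, filled symbols Ps, shape the replicate number (circle 1, square 2, triangle 3, diamond 4), and bars the mean and SD of 4 samples. The Ps samples of Mrpl42, Mrpl30 and Mrps18c are all above the CB samples of their line, and those of Mrps31, Mrps18b and Mrps5 overlap with them.

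The other members called in neither line were Mrpl2, Mrpl38, Mrpl41 and the pseudogene Mrpl23-ps1, whose reads per sample ranged from 3 to 14. Mrpl48-ps was higher in Ps in HBB, at 0.83 ± 0.27 (limma adjusted p = 0.0124), and not called in Pkp4 cUTR, at 0.34 ± 0.27 (adjusted p = 0.305). It rests on 12 to 27 reads per sample and can share reads with its parent Mrpl48, which was higher in both lines by 0.73 and 0.71. Mrps30, of the large subunit, stood at 0.22 ± 0.09 in HBB (adjusted p = 0.0385) and 0.16 ± 0.09 in Pkp4 cUTR (adjusted p = 0.114). Mrps36 was at 0.69 and 0.61, and passed in both lines.

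The enrichment went with coding length within the family. Over the 76 protein-coding members, Spearman's rho between coding length and log2(FC) was -0.55 in HBB and -0.52 in Pkp4 cUTR, and over the 11365 protein-coding RNAs of the table it was -0.35 and -0.29. These values describe genes measured in the same libraries, which are not independent replicates. The relation with the length of the whole transcript was weaker among the members, at -0.17 and -0.19, and rests on the annotated transcript models. Of 23 members with a coding length up to 450 bases, 22 were higher in Ps in HBB, where 70.5% of protein-coding RNAs of that length were. Of 25 members between 450 and 700 bases 23 were, against 50.6%, and of 28 between 700 and 1400 bases 17 were, against 28.0%. In Pkp4 cUTR the counts in the same order were 21, 25 and 15, against 65.5%, 48.3% and 26.3%. In each length class the share of members called was thus above that of all protein-coding RNAs, and no difference between the shares was tested.

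**Figure D4:**
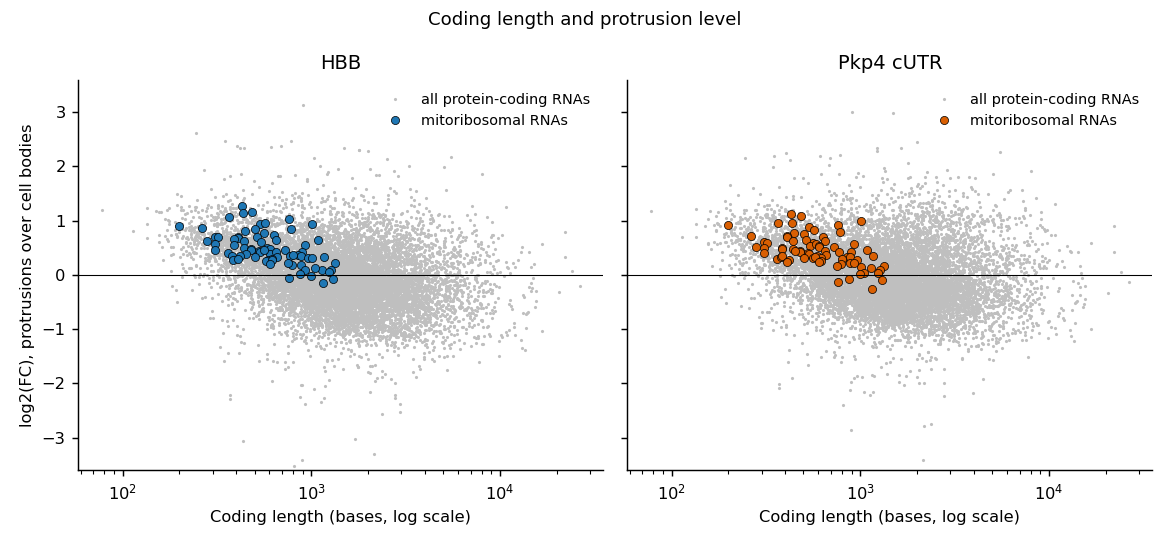
Coding length in bases (x axis, log scale) and log2(FC) of Ps over CB (y axis) for all protein-coding RNAs (grey) and the 76 protein-coding members (coloured), in HBB (left) and Pkp4 cUTR (right). Members reach from 198 to 1329 bases, and the shorter ones lie higher, with Spearman's rho of -0.55 and -0.52.

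Levels between members were compared per length of transcript, as reads scaled to length and library size (RPKM). Over the 76 members with a mean log2 CPM above 1 they ran from 1.57 to 231 RPKM with a median of 34.5. Mrpl33 had the highest mean over all samples. It stood at 157 ± 14 RPKM (SD, n = 4) in HBB CB and 293 ± 30 in HBB Ps, and 163 ± 28 and 310 ± 68 in Pkp4 cUTR. Mrpl54 was second by that mean, at 160 ± 17 and 259 ± 25 RPKM in HBB and 177 ± 29 and 292 ± 62 in Pkp4 cUTR. In CB of both lines Mrpl54 was above Mrpl33 by less than the spread, and in Ps it was below. Mrpl52, Mrps6 and Mrpl28 came next with means over all samples of 182, 175 and 144 RPKM. The lowest were the pseudogenes Mrpl23-ps1 at 0.667 and Mrpl48-ps at 1.17 RPKM, then Mrpl1 at 1.57, Mrpl47 at 2.27 and Mrps31 at 5.21. The order depends on the transcript model: per kilobase of coding length, Mrpl33 stayed at rank 1, Mrps6 was at rank 2 and Mrpl28 at rank 10. A high level and a high log2(FC) did not go together, with a Spearman's rho of -0.02 in HBB and 0.08 in Pkp4 cUTR over 76 members between mean log2 CPM and log2(FC).

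The Pkp4 cUTR line was compared with HBB in how far the members were enriched in Ps. For log2(Diff FC), the Pkp4 cUTR log2(FC) minus that of HBB, limma called 0 members at an adjusted p under 0.05, and 0 of all RNAs (0%) in either direction. At an unadjusted p under 0.05 there were 0 members, against 1.36% of all RNAs above 0 and 0.961% below. This fit did not pair the lines by number, although the check described below took the numbers to pair them. The alternative fit with replicate blocks matched Ps with CB of a line for log2(Diff FC). No fit of log2(Diff FC) with the lines paired was run. The median over the members was -0.03, and 24 of 78 (30.8%) lay above 0, against 51.6% of all RNAs. Similar families leaned the same way. Of 81 cytosolic ribosomal proteins 11 lay above 0, with a median of -0.05, and of 79 nuclear-encoded respiratory chain and ATP synthase subunits 21, with a median of -0.03. Computed by replicate number the members' median was -0.26, 0.10, 0.19 and -0.14 (-0.03 ± 0.21, SD, n = 4), so the numbers lay on both sides of 0. These values match Ps with CB by number, although the check described below did not pair them. The fitted median ranged from -0.11 without Pkp4 cUTR Ps replicate 3 to 0.04 without Pkp4 cUTR CB replicate 4 when 1 sample was left out, and was also above 0 without HBB Ps replicate 3, Pkp4 cUTR Ps replicate 1 or Pkp4 cUTR Ps replicate 4 (0.0120, 0.0165 and 0.0046).

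Mrpl39, of the large subunit (chromosome 16, 84717576 to 84735742, minus strand), had the smallest unadjusted p for log2(Diff FC). In HBB it stood at 4.69, 4.77, 4.90 and 4.88 log2 CPM in CB and 5.10, 5.12, 5.16 and 5.08 in Ps. In Pkp4 cUTR it stood at 4.97, 4.95, 4.88 and 5.10 in CB and 5.14, 5.09, 5.20 and 5.04 in Ps. The fractions separated in HBB and overlapped in Pkp4 cUTR, where CB and not Ps was higher than in HBB on average. The log2(Diff FC) of -0.16 ± 0.10 had an unadjusted limma p of 0.118 and an adjusted p of 1.00.

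Mrpl48-ps followed at -0.50 ± 0.38, with an adjusted limma p of 1.00. Its values were -0.82, -0.81, -0.95 and -0.82 log2 CPM in HBB CB, 0.31, -0.60, 0.47 and -0.25 in HBB Ps, -1.11, -0.05, -0.84 and -0.53 in Pkp4 cUTR CB and -0.38, -0.45, -0.35 and -0.07 in Pkp4 cUTR Ps. The Ps samples of HBB differed among themselves by more than the fractions did in Pkp4 cUTR. Mrpl32, of the large subunit, came after it at -0.18 ± 0.15, with an adjusted limma p of 1.00.

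Between the lines, most members stood slightly higher in Pkp4 cUTR cells within a fraction. In CB, 1 member (1.28%) was higher in Pkp4 cUTR at an adjusted p under 0.05, against 3.42% of all RNAs, and 0 were lower, against 5.55%. At an unadjusted p under 0.05 there were 15 higher, against 10.8%, and 0 lower, against 12.1%. The log2 ratio was above 0 in 71 of 78 members (91%), against 50.6% of all RNAs, with a median of 0.12. By replicate number that median was 0.21, 0.04, 0.02 and 0.17, and without Pkp4 cUTR CB replicate 4 the fitted median was 0.06, the lowest with 1 sample left out, and the highest was 0.17. In Ps, 0 members were called, against 2.89% of all RNAs higher and 4.26% lower, while at an unadjusted p under 0.05 there were 7 higher, against 10.6%, and 0 lower, against 11.4%. There 63 members (80.8%) lay above 0, against 52.7%, with a median of 0.09 and -0.04, 0.15, 0.21 and 0.03 by replicate number. Without Pkp4 cUTR Ps replicate 3 this median was 0.02, against 0.01 for all RNAs, and the other samples left out in turn gave 0.07 to 0.13. Similar families leaned the same way. Of 81 cytosolic ribosomal proteins, 81 lay above 0 in CB and 79 in Ps, with medians of 0.23 and 0.18, larger than those of the members. Of 79 nuclear-encoded respiratory chain and ATP synthase subunits, 68 and 53 did, with medians of 0.08 and 0.05. Both comparisons of the lines use the samples that also enter the log2(FC) values.

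The member called in CB was Mrpl35, the counterpart of a bacterial large-subunit protein (chromosome 6, 71812997 to 71826969, minus strand). It stood at 4.69, 4.79, 4.75 and 4.80 log2 CPM in HBB CB and 5.18, 5.01, 4.93 and 5.35 in Pkp4 cUTR CB. In Ps it was at 5.72, 5.73, 5.81 and 5.58 in HBB and 5.89, 6.01, 6.07 and 5.82 in Pkp4 cUTR. The lines did not overlap in either fraction, which in CB held for Mrpl35 alone (1.28%, against 6.49% of all RNAs with Pkp4 cUTR higher, while 0 members and 8.11% of all RNAs were lower) and in Ps for 4 members, Mrpl1, Mrpl35, Mrps16 and Mrps9 (5.13%, against 6.31%, while 0 members and 7.4% of all RNAs were lower). The difference was 0.36 ± 0.09 in CB (limma adjusted p = 0.0142) and 0.23 ± 0.09 in Ps (adjusted p = 0.107). Without CB replicate 4 of both lines, the CB difference was 0.29 with an adjusted p of 0.0551. With the replicate number as a block, 2 members were called in CB and 1 in Ps, the latter Mrpl45.

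In Ps the smallest p belonged to Mrps16, the counterpart of a bacterial small-subunit protein (chromosome 14, 20389304 to 20393634, minus strand). It stood at 6.32, 6.14, 6.43 and 6.23 log2 CPM in HBB Ps and 6.51, 6.68, 7.10 and 6.47 in Pkp4 cUTR Ps. In CB it was at 5.50, 5.45, 5.59 and 5.89 in HBB and 6.03, 5.80, 5.82 and 6.34 in Pkp4 cUTR. The lines separated in Ps and overlapped in CB, and the Ps difference of 0.41 ± 0.14 did not pass the adjusted test (limma adjusted p = 0.0783), although it did without CB replicate 4 of both lines, which share the estimate of the spread (0.41, adjusted p = 0.022).

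Mrpl45, of the large subunit (chromosome 11, 97315716 to 97329920, plus strand), was next in Ps. Its levels were 6.50, 6.48, 6.64 and 6.54 log2 CPM in HBB Ps and 6.63, 6.67, 6.98 and 6.81 in Pkp4 cUTR Ps, after 5.89, 5.95, 6.04 and 6.11 in HBB CB and 6.20, 6.06, 6.20 and 6.37 in Pkp4 cUTR CB. The lines overlapped by a little in both fractions. The Ps difference was 0.23 ± 0.08 (limma adjusted p = 0.106), and 0.23 with the replicate block (adjusted p = 0.0349).

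Other RNAs of the same ribosomes were set beside the members. Of the subunits without an Mrp name in the table, 5 of 6 were higher in Ps in HBB (Dap3, Chchd1, Aurkaip1, Ptcd3 and Ict1), and all 6, with Gadd45gip1, in Pkp4 cUTR, with medians of 0.39 and 0.44. The largest was Chchd1, a small-subunit protein, at 0.89 ± 0.17 and 0.87 ± 0.17. The ribosomal RNAs of the mitoribosome, which arise inside the organelle, were also higher in Ps: mt-Rnr1 of the small subunit by 2.31 ± 0.13 and 1.99 ± 0.13, and mt-Rnr2 of the large subunit by 1.99 ± 0.16 and 2.00 ± 0.16 on the log2 scale. Of all 18 mitochondrially encoded RNAs, 13 were higher in HBB and 11 in Pkp4 cUTR, where 1, mt-Nd5, was lower. Their reads together came to 1.01% ± 0.154 of the scaled library size in HBB CB and 2.12% ± 0.467 in HBB Ps. In Pkp4 cUTR they came to 1.03% ± 0.164 in CB and 1.47% ± 0.338 in Ps (SD, n = 4 each). These are not shares of all reads. The scaled size was 1.07 to 1.11 times the total reads in CB and 0.828 to 0.974 times in Ps.

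Genes that build or serve the mitoribosome were counted in the same way, against 28.3% and 28.2% of all RNAs called higher and 28.9% and 28.5% called lower in HBB and Pkp4 cUTR, and their difference from the members was not tested. Of 15 translation factors, 3 were higher in HBB (Mrrf, Guf1 and Gatc) and 6 in Pkp4 cUTR, with 0 lower in either and medians of 0.09 and 0.05, so the shares of higher factors, 20% and 40%, lay on both sides of that of all RNAs. Guf1, a translation GTPase, was the highest at 0.69 ± 0.13 and 0.88 ± 0.12, and Taco1, an activator of translation of a cytochrome oxidase subunit, the lowest at -0.10 ± 0.10 and -0.24 ± 0.10. Of 24 genes for assembly and ribosomal RNA modification, 4 were higher and 9 lower in HBB (the 4 were Fastkd2, Malsu1, Tfb1m and Mpv17l2), and 5 higher, with Mterf4, and 10 lower in Pkp4 cUTR, with medians of -0.14 and -0.10. Mettl17 was at -0.98 ± 0.12 and -0.76 ± 0.11, and was lower in both lines. Dhx30, an RNA helicase with a mean of only -1.13 log2 CPM, stood at -1.89 ± 0.54 in HBB (limma adjusted p = 0.00599) and -1.17 ± 0.59 in Pkp4 cUTR, where it was not called (adjusted p = 0.0975). Of 16 genes for mitochondrial transcription, RNA handling and membrane insertion, 6 were higher and 4 lower in each line. Slirp, which binds mitochondrial messenger RNAs, stood at 1.46 ± 0.16 and 1.38 ± 0.16, and Polrmt, the mitochondrial RNA polymerase, at -0.70 ± 0.09 and -0.67 ± 0.09.

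The members' median was below those of the most similar families and above that of all RNAs. Of 81 cytosolic ribosomal proteins, 78 were higher in Ps in each line, with medians of 1.11 and 1.04, and 58 in HBB and 53 in Pkp4 cUTR were past a fold of 2. Of 79 nuclear-encoded respiratory chain and ATP synthase subunits, 74 were higher in HBB and 69 in Pkp4 cUTR, with medians of 0.66 and 0.65. The members' medians were 0.44 and 0.42, and that of all RNAs 0.01 in each line. The differences between the families were not tested.

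**Figure D5:**
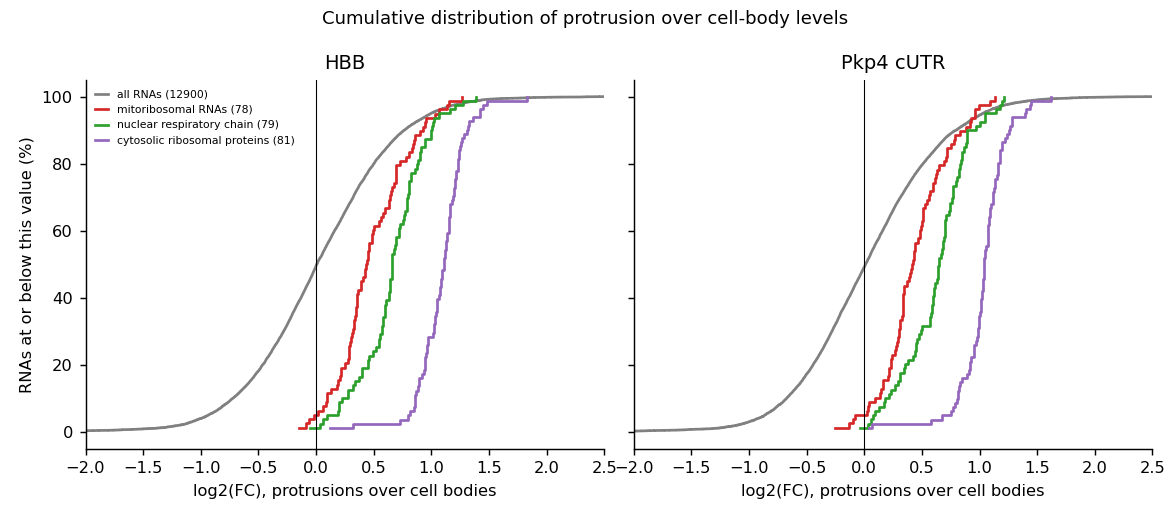
Share of RNAs at or below a given log2(FC) of Ps over CB (y axis, percent; x axis, log2(FC)) for the 78 members, 79 nuclear respiratory chain RNAs, 81 cytosolic ribosomal protein RNAs and all 12900 RNAs, in HBB (left) and Pkp4 cUTR (right). The members' median lies between that of all RNAs, 0.01, and those of cytosolic ribosomal proteins, 1.11 and 1.04. The members' curve ends at 1.27 and 1.13, and some of all RNAs lie above these values. The x axis stops at -2 and 2.5, and a few of all RNAs lie beyond it.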

How the data were processed

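RNA was sequenced from Ps and CB of both lines as stranded libraries. The study describes them as total RNA libraries but names an mRNA kit, so how the RNA was selected is uncertain. The authors aligned reads to mm10 with STAR (2.4.2a in the submitters' processing notes), counted them per gene with Rsubread and normalized with limma-voom (limma 3.26.1 in the same notes), and deposited log2 CPM for 12900 RNAs. The deposited log2 values hold the reads of a gene plus 0.5 over a scaled library size. From them, whole reads were recovered: 100% of the values lay within 0.01 of a whole number. Totals were 18660287 to 31260831 reads per sample, and 3 reads correspond to 0.0890 to 0.176 CPM, which covers counting error only. These reads entered limma-voom (limma 3.58.1, R 4.3.3) over all RNAs with 1 mean per group, Benjamini-Hochberg adjustment and two-sided moderated tests. The code was also run on simulated reads, independent between samples, with the same dispersion for every RNA. These held no effect shared by samples of the same number and no outlying sample, so they do not measure the error rate in these data. The authors' own comparisons were not used. Alternatives were another scaling, filter, pseudocount, weighting, a replicate block and leaving out samples.

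Members and lists were chosen with earlier results of these data known. Named members were the 8 highest and 8 lowest by average log2(FC) of the lines among those with a mean log2 CPM above 1, every member past a fold of 2, the 3 with the smallest p for log2(Diff FC) and for the lines compared in Ps, those with an adjusted p under 0.05 in CB, the 5 highest and 5 lowest levels, the Mrps18 paralogs, Mrps30 and the pseudogenes. From the other lists the 2 highest and 2 lowest may be named, and further symbols were named after their values were seen. Gene models were those of GENCODE for GRCm38, and 99.0% of the RNAs matched 1. In these models 7 members overlap exons of another gene on the same strand and 26 on the opposite strand. Within a fraction, deviations from the group means were correlated between the lines for samples with the same number, and the numbers were taken to pair the lines. The mean correlation was 0.48 in CB, against -0.14 for different numbers, and 0.32 in Ps, against -0.11. In CB the lowest with the same number was 0.33 and the highest with different numbers 0.24. In Ps these were 0.196 and 0.199, so the pairing was less clear there. Ps and CB of a line were not paired by this check. The mean correlation was 0.18 in HBB, against -0.06 for different numbers, and -0.16 in Pkp4 cUTR, against 0.06. In HBB the values with the same number, 0.05 to 0.39, were above 0, but those with different numbers reached 0.44.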

Additional observations from a re-analysis of the deposited data

Results flagged for a closer look

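The 11 members given in every sample and the median over all members were examined for a sample far from the other 3 of its group, which made 48 groups, and 2 were found, where chance gives about 1 in 20 groups. Mrps18b stood at 6.01 log2 CPM in Pkp4 cUTR Ps replicate 3, against 5.80 to 5.81 in the other 3 samples. Mrpl48-ps stood at -0.95 in HBB CB replicate 3, against -0.82 to -0.81 in the others, a gap small against its spread of 0.50 (SD) in HBB Ps. The highest sample of the members' median, 0.51 in Pkp4 cUTR Ps replicate 3, was not far enough from the others to be listed here.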

How the results depend on the processing

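The counts of higher members in HBB and Pkp4 cUTR stayed within 1.5 times of 63 and 61 under the other weighting, pseudocount, filters, size factors, upper-quartile and quantile scaling, and leaving out any 1 sample gave 56 to 66 and 52 to 67. The medians with 1 sample left out were 0.40 to 0.49 in HBB, 0.35 to 0.49 in Pkp4 cUTR, -0.11 to 0.04 for log2(Diff FC), and 0.06 to 0.17 in CB and 0.02 to 0.13 in Ps for the lines compared. Of the 63 and 61 called members, 54 and 52 were called in all 16 of these. With reads scaled to totals, 36 members were higher and 4 lower in HBB with a median of 0.20, and 28 higher and 8 lower in Pkp4 cUTR. The share of all RNAs called was not counted under another scaling, filter, pseudocount, weighting or block, or with samples left out. A fold above 2 with an unadjusted p under 0.05 left 5 and 2. Lower members in Pkp4 cUTR were 1 under quantile normalization, and 0 to 1 with 1 sample left out, the 1 without CB replicate 1 or without Ps replicate 3. For the lines in CB, where 1 member was higher, 1 to 4 were with 1 sample left out (2 without HBB CB replicate 4 or Pkp4 cUTR CB replicate 2, 4 without Pkp4 cUTR CB replicate 3, 3 without Pkp4 cUTR Ps replicate 3) and 0 without CB replicate 4 of both lines. In Ps the count of 0 became 0 to 1 with 1 sample left out (1 without Pkp4 cUTR CB replicate 4), 1 without CB replicate 4 of both lines and 1 without number 4 of all groups, a choice made after seeing the data. The cause of these changes was not tested. The replicate block gave 2 members in CB and 1 in Ps where it paired the lines, and 60 and 59 higher members for Ps over CB, where the samples share only a number. It moved no other count by over 1.5 times.

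Among 1051 values of the 39 named results, 1012 kept their direction and their side of the threshold and 21 changed sign, all in members near 0. With reads scaled to totals these were Mrps2 in HBB (-0.22), Mrpl44 in Pkp4 cUTR (-0.24), Mrps27 (-0.18 and -0.23), Mrpl3 (-0.10 and -0.22) and Mrpl37 (-0.14 and -0.17). Quantile normalization gave 0.0010 for Mrps2 in Pkp4 cUTR and 0.0479 for Mrpl44 in HBB, and upper-quartile scaling 0.0354 for the latter. Without CB replicate 4 of both lines Mrpl44 in HBB was 0.0129, and without number 4 of all groups Mrps2 in HBB was -0.0064 and Mrpl44 in HBB 0.0162. With 1 sample left out, Mrps2 in HBB ranged from -0.0344 to 0.0687, Mrpl44 from -0.0673 to 0.0130 in HBB and from -0.0255 to 0.0807 in Pkp4 cUTR, and Mrps27 in Pkp4 cUTR from -0.0181 to 0.0783. Depth limits the pseudogenes, with 3 to 27 reads per sample, more than the other members, with at least 72.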
